A study of Homo sapiens with 60 samples.

Results

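Cells treated with a high dose of a dimerizer for a day, 3 nM for 24 h, were compared with cells treated with an intermediate dose for the same time, 0.2 nM for 24 h. Members were the 6 libraries whose labels gave 24 h and 3 or 0.2 nM, 3 for each dose, out of 60 libraries in the series. The cells were U2OS Dmr-PERK, a line of the human osteosarcoma line U2OS that stably carries a synthetic kinase in which the eIF2 alpha kinase domain of mouse PERK is joined to the DmrB domain, and the ligand AP20187 pairs these domains and so switches the kinase on. The study varied the dose (0.01, 0.2 or 3 nM) and the time (1, 2, 4, 8, 16 or 24 h) of the ligand, and per its design text the intermediate dose was meant to lower protein synthesis in part, while the high dose was to lower it most and to form stress granules. The sample labels give the intermediate dose to more decimals, and it is rounded here to 0.2 nM, as in the design text.

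Every group used here, untreated cells included, carried the Dmr-PERK construct and the genotype label WT, and whether the line is 1 clone was not given. The groups were 3 nM at 24 h, 0.2 nM at 24 h, untreated set 2 and untreated set 1 (both at 0 h), with 0.01 nM at 24 h and the other times of the 3 and 0.2 nM doses as further points, each with n = 3 libraries. Wells were seeded the day before treatment, and the ligand was added at staggered times before collection. No untreated group at 24 h was among the samples, so the untreated sets differ from the treated groups in drug and in time since the ligand was added. Replicates were separate samples, but the labels did not say that they were separate cultures, and the spread behind each p-value may therefore be technical.

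The integrated stress response starts when a kinase such as PERK phosphorylates the translation initiation factor eIF2 alpha. Most protein synthesis then slows, while the mRNAs of ATF4 and a few other regulators are translated better, and ATF4 and its partners switch on genes of amino acid supply, protein folding and feedback. A part of that feedback is PPP1R15A (GADD34), which brings a phosphatase to eIF2 alpha. Lower synthesis of the short-lived inhibitor of NF-kB is also known to release NF-kB, a family of transcription factors that drive cytokine and survival genes.

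Total estimated counts were 23848085 to 24864782 at 3 nM and 8909060 to 9493505 at 0.2 nM, a ratio of medians of 2.7. They were 20713699 to 26748176 in untreated set 2 and 7169721 to 8395019 in untreated set 1. The labels tied neither untreated set to a dose. In the direct difference between the doses, dose and this gap in depth cannot be told apart. Genes are therefore given by their direct difference (3 over 0.2 nM at 24 h, the log2 value meant where none other is named) and their set-relative difference (3 nM over set 2, minus 0.2 nM over set 1, on the log2 scale). For the larger groups the 24 h minus 4 h difference (the dose difference at 24 h minus that at 4 h) is added. Mitochondrially encoded mRNAs took 3.40% ± 0.0128 of counts at 3 nM, 4.28% ± 0.0703 at 0.2 nM, 4.44% ± 0.0530 in untreated set 2 and 8.84% ± 0.615 in untreated set 1 (SD, n = 3 each). Untreated set 1 stood apart in this share, and it enters each set-relative value. Of 10 mesenchymal and osteoblast markers, 7 passed the filter on low counts, VIM stood at 1318 ± 10.8 CPM (counts scaled to a common library total) at 3 nM and 1787 ± 98.8 CPM at 0.2 nM, and TWIST1, SP7 and IBSP had 0 to 2 counts over the 3 libraries of either dose. KRT18 and KRT8, which mark epithelia and are also found in many cultured lines, were expressed, and 5 of 6 neural markers passed the filter, with SOX10 at 0 counts at both doses. Of 8 blood and immune markers 2 passed, CD3E had 0 counts at both doses, and over the 3 libraries PTPRC had 11 counts at 3 nM and 10 at 0.2 nM, and CD8A 69 and 17.

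Far more genes were strongly lower than strongly higher at 3 nM. Of 18040 genes tested, 5525 (30.6%) rose and 4600 (25.5%) fell in the direct difference at an adjusted p under 0.05 (edgeR's quasi-likelihood test with Benjamini-Hochberg adjustment, used for every adjusted p here), but with at least a 2-fold change 272 (1.51%) rose and 1191 (6.6%) fell. In the set-relative difference 4616 genes (25.6%) rose and 4110 (22.8%) fell, 270 (1.5%) and 1737 (9.63%) of them by at least 2-fold. Both differences passed with at least 2-fold in the same direction for 122 genes higher (0.676%) and 856 genes lower (4.75%). Adding the 24 h minus 4 h difference at the same size left 68 genes higher (0.377%) and 563 lower (3.12%). Called in opposite directions by the direct and the set-relative difference were 113 genes (0.626%).

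The excess of large losses was also present among well expressed genes. Among the 10613 genes with a mean of at least 10 CPM, 88 were at least 2-fold higher and 368 at least 2-fold lower in the direct difference, and 65 and 262 in both differences. Their medians were 0.10 direct and 0.12 set-relative. Genes with a mean of 1 to 10 CPM numbered 5560. Of them 136 were at least 2-fold higher and 597 lower directly, with medians of -0.23 and -0.43. Of the 1867 genes under 1 CPM, 48 were higher and 226 lower, with medians of -0.34 and -0.71. The share of large losses was thus greater at lower expression, and the part of depth in it was not tested. Among the 14114 protein-coding genes the direct numbers were 208 higher and 847 lower. Of the 10139 protein-coding genes with a mean of at least 10 CPM, 4790 rose and 2633 fell at any size, with a median of 0.11. A larger share of them thus rose than of all genes, which also bears on the gene lists below. The spread between replicates was small, and even slight differences pass the test, so sizes are given beside each p. On the scale of deposited TPM (abundance corrected for transcript length) the split of called genes was 2990 higher and 3703 lower in the direct difference, and 714 higher and 5193 lower in the set-relative one, where that scale moved the median of all genes to -0.26.

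**Figure D1:**
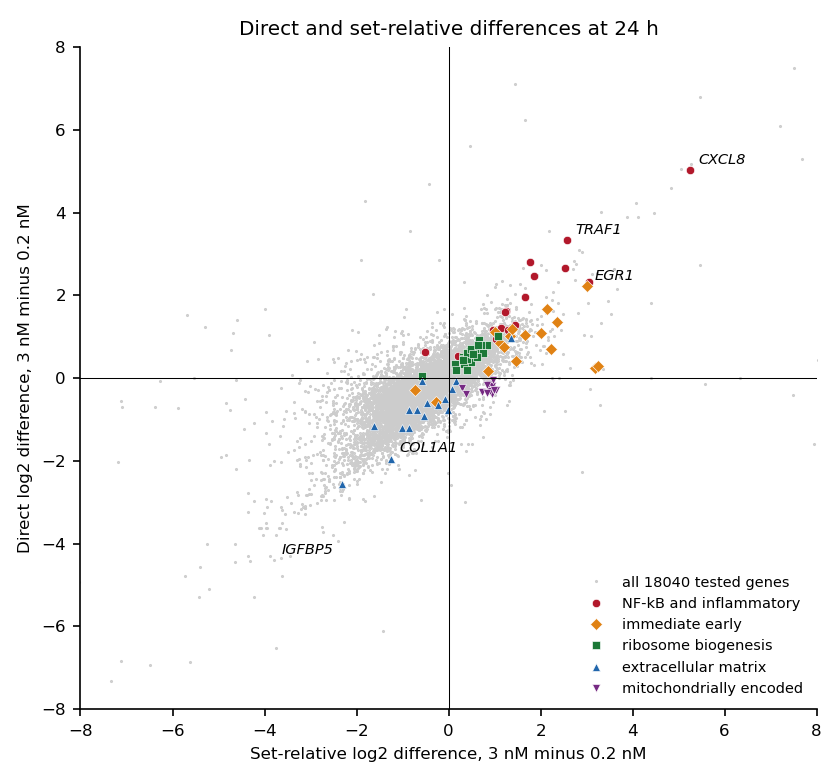
Set-relative log2 difference (horizontal axis) and direct log2 difference (vertical axis) of 3 over 0.2 nM at 24 h, 1 point per tested gene, with members of 5 gene lists in colour and the rest in grey. Axes end at 8 on either side and leave 9 genes outside, and TNF and CSF2, which had 0 counts at 0.2 nM, are not drawn. NF-kB genes other than REL lie in the upper right, matrix genes mostly in the lower left, and mitochondrially encoded mRNAs below the horizontal line and right of the vertical one.

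NF-kB targets, cytokines and survival genes among them, were the gene group with the largest gain in the direct difference. Of 20 listed NF-kB and inflammatory genes 18 passed the filter (CXCL1 and CXCL2 had 0 counts at both doses), all 18 rose in the direct difference, where 30.6% of all genes did, and 15 rose at least 2-fold, where 1.51% did. Their summed level was 1280 to 1391 CPM in the 3 nM libraries and 379 to 386 CPM in the 0.2 nM libraries. All 18 had their 3 nM libraries above their 0.2 nM libraries, as 32.9% of all genes did. The median direct difference of the 16 members with counts in every group was 1.62, against -0.00459 over all genes, and over all 18 with TNF and CSF2 at their lower bound it was also 1.62. In the set-relative difference 15 rose (25.6% of all genes did) and REL fell. The set-relative median of the same 16 members was 1.37, below the 1.46 of immediate early genes. In the 24 h minus 4 h difference 13 rose (19.5% of all genes did). TNF and CSF2 are among these 13, rest on 0 counts at 0.2 nM and changed sign in that difference on log2(TPM + 1). The list was drawn up with results of these data known, so its direction is a description.

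Many of these genes share a known sequence at their promoters. The motif GGNNTTTCC, the core of sites that NF-kB binds, was found on either strand in 13 of the 17 listed genes with an entry in the RefSeq promoter table (250 bases before to 50 after the annotated start, GRCh38.p14), and in 2198 of all 35116 promoters (6.26%). The list was chosen for NF-kB genes, and a match of letters is a description and not a bound site. The promoters of 4 members are shown because these cytokines and an inhibitor rose together, with the motif in capitals. They lie on the plus strand at chr4:73740319-73740618 (CXCL8), chr2:227813592-227813891 (CCL20), chr7:22726950-22727249 (IL6) and chr6:137867009-137867308 (TNFAIP3). The match nearest the window's left end begins 91 bases before the start in CXCL8, 79 in CCL20, 72 in IL6 and 67 in TNFAIP3, which has a further match beside it.
CXCL8: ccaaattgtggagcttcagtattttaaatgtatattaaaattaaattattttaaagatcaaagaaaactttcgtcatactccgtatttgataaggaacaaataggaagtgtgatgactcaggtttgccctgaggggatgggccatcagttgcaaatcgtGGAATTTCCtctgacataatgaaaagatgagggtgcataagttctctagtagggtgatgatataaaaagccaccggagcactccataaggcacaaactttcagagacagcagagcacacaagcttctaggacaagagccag
CCL20: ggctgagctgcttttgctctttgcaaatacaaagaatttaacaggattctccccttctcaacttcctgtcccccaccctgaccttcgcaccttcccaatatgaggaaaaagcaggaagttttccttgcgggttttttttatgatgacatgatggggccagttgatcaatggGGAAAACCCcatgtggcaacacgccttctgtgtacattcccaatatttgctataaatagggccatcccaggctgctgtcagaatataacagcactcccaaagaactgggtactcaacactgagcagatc
IL6: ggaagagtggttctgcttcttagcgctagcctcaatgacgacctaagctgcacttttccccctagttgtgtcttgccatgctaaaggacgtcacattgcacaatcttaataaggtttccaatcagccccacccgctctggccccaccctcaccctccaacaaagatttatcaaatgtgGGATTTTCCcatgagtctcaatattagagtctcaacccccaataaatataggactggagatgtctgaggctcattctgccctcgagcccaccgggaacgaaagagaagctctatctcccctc
TNFAIP3: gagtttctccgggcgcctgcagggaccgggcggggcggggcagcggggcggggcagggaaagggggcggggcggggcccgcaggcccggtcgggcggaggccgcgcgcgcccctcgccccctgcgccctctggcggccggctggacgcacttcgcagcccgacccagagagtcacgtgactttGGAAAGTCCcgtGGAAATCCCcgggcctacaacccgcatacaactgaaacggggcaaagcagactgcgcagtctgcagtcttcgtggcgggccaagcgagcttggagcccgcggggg

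Genes outside the NF-kB list were also among the largest gains that held in both differences. Named here are the 12 genes that rose and the 12 that fell ranked by the smaller of their direct and set-relative differences, with at least 5 CPM in the higher dose group and no overlap of libraries. The smaller difference was at least 2.22 for each gene that rose and 2.38 in size for each that fell. The 12 higher genes were CXCL8, BCL2A1, TMEM265, ESM1, TRAF1, IL23A, IL1A, CCL20, IL1RL1, RND1, PTGS2 and EGR1. Of the 10 with a promoter entry, 2 held GGNNTTTCC (20%), 4 held the AP-1 motif TGANTCA (40%, against 7.71% of all promoters) and 1, BCL2A1, held TGATGNAA, a form of the element that ATF4 binds (3.62% of all promoters).

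CXCL8, the chemokine interleukin-8 that draws neutrophils, had 339, 292 and 281 CPM at 3 nM, against 11.3, 9.65 and 6.98 CPM at 0.2 nM. Every 3 nM library was far above every 0.2 nM library, a 32.7-fold difference (log2 5.03, SE 0.152, edgeR adjusted p = 2.31e-34, set-relative 5.25). The gene (ENSG00000169429.10) lies at 73740506 to 73743716 of chromosome 4 on GRCh38. Untreated cells held 61.4 ± 13.0 CPM in set 2 and 71.3 ± 21.1 CPM in set 1, so CXCL8 rose against set 2 at 3 nM (log2 2.30) and fell against set 1 at 0.2 nM (log2 -2.95). At 0.01 nM for 24 h CXCL8 averaged 1.77 CPM, so among the 24 h groups its mean ran up with dose. Against the untreated sets of 0 h, few genes changed at least 2-fold in opposite directions at the doses, as CXCL8 did. Of these, 5 genes were higher at 3 nM and lower at 0.2 nM, and 14 the reverse. Of the 6 of these 19 with the largest set-relative difference, 3 went the way of CXCL8 (itself, ESM1 and TMEM265) and 3 low-count transcripts known by clone names (CITF22-49D8.1, CTB-131B5.2 and RP11-981G7.1) went the other way. These 3 transcripts averaged 0.139, 0.348 and 0.0891 CPM in set 1 and 0.725, 1.8 and 0.619 CPM in set 2. Their rise at 0.2 nM is thus measured against the lower of the untreated sets.

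ESM1, a proteoglycan secreted by endothelium and tumour cells, had 24.1, 19.3 and 18.6 CPM at 3 nM, against 1.9, 1.08 and 1.21 CPM at 0.2 nM (log2 3.88, SE 0.252, edgeR adjusted p = 6.85e-20, set-relative 4.11). Against the untreated sets it rose at 3 nM (log2 1.73) and fell at 0.2 nM (log2 -2.38), and at 0.01 nM for 24 h it averaged 0.622 CPM. TMEM265, a little studied membrane protein, stood at 6.20 ± 1.09 CPM at 3 nM and 0.395 ± 0.439 CPM at 0.2 nM, where 1 library had 0 counts.

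TRAF1, an adaptor of the tumour necrosis factor receptors that NF-kB induces, had 155, 146 and 143 CPM at 3 nM, against 14.8, 13.9 and 15 CPM at 0.2 nM. These libraries were a factor of 10.2 apart (log2 3.34, SE 0.123, edgeR adjusted p = 1.35e-30, set-relative 2.57). BCL2A1, a relative of BCL2 that blocks cell death, had 15.9, 14.1 and 13.7 CPM at 3 nM, against 0.846, 0.867 and 0.607 CPM at 0.2 nM. It was low in both untreated sets, with 0.301 ± 0.162 CPM in untreated set 2 and 0.260 ± 0.336 CPM in set 1, and its rise at 0.2 nM did not pass the test (log2 1.44, edgeR adjusted p = 0.0667). Its direct difference was 4.23 (SE 0.266). Its set-relative difference of 4.08 rests on these low untreated counts and was 2.29, past no threshold, without replicate 1 of untreated set 1.

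IL1A, the alarm cytokine interleukin-1 alpha, had 32.1, 30.6 and 27.6 CPM at 3 nM, against 4.76, 3.58 and 4.25 CPM at 0.2 nM (log2 2.84, SE 0.17, edgeR adjusted p = 2.08e-21, set-relative 2.72). Both doses were above untreated, where it averaged 1.00 ± 0.274 CPM in set 2 and 0.905 ± 0.436 CPM in set 1. IL1RL1, the receptor of interleukin-33, followed the same order with 6.09 ± 0.703 CPM at 3 nM and 0.978 ± 0.367 CPM at 0.2 nM. Its set-relative difference of 3.59 (edgeR adjusted p = 0.0134) lost its call without replicate 2 of untreated set 1, where it was 2.63, and when the deep libraries were thinned, where it was 3.15. IL23A, a subunit of interleukin-23, had 7.28, 8.04 and 5.77 CPM at 3 nM, against 0.634, 0.65 and 1.21 CPM at 0.2 nM, where its difference from untreated set 1 did not pass (log2 0.47, edgeR adjusted p = 0.406).

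CCL20, a chemokine for dendritic cells and lymphocytes, had 9.66, 8.83 and 8.43 CPM at 3 nM, against 1.37, 1.19 and 1.62 CPM at 0.2 nM. The 3 nM group did not pass the test against untreated set 2 (7.43 ± 1.25 CPM, log2 0.26, edgeR adjusted p = 0.0556), and the 0.2 nM group fell below untreated set 1 (log2 -2.27). PTGS2, which makes prostaglandins, had 19.5, 20.8 and 19.5 CPM at 3 nM, against 4.23, 2.6 and 3.64 CPM at 0.2 nM, and again fell below set 1 at 0.2 nM (log2 -2.29). RND1, a small GTPase that loosens cell adhesion, had 10.7, 9.75 and 10.8 CPM at 3 nM, against 1.37, 2.82 and 1.21 CPM at 0.2 nM. For none of these 3 genes did the libraries of the doses overlap, as the naming rule asked. At 0.01 nM for 24 h CCL20 averaged 0.898 CPM, PTGS2 1.2 CPM and RND1 1.73 CPM.

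EGR1, a zinc-finger factor of the immediate early response, had 489, 499 and 471 CPM at 3 nM, against 103, 107 and 102 CPM at 0.2 nM (log2 2.22, SE 0.0835, edgeR adjusted p = 3.11e-30, set-relative 3.00). Both were below untreated, which held 1424 ± 107 CPM in set 2 and 2434 ± 164 CPM in set 1. The higher level at 3 nM was therefore a smaller fall, of log2 -1.55 against set 2, beside log2 -4.55 at 0.2 nM against set 1. At 0.01 nM for 24 h EGR1 averaged 117 CPM.

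**Figure D2:**
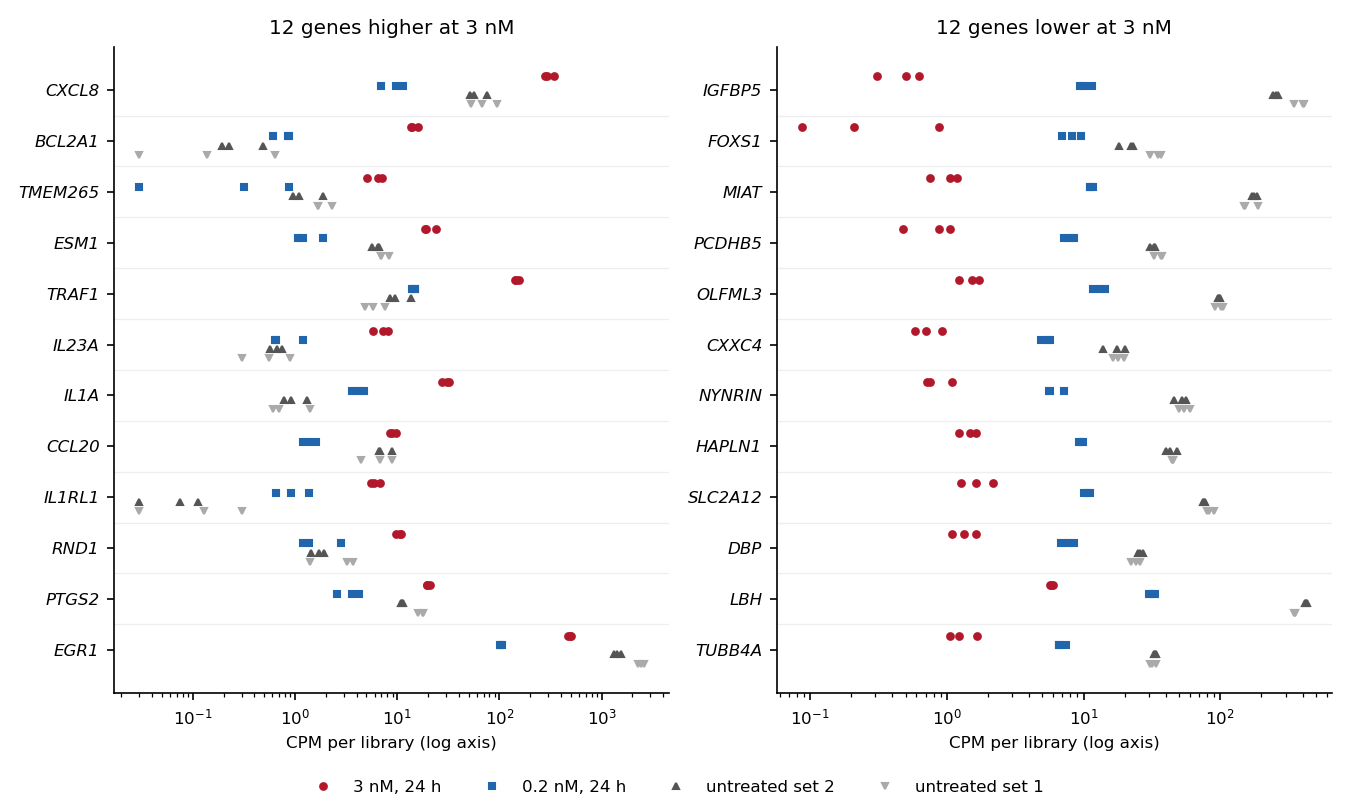
CPM in each library, on a log axis, of the 12 genes that rose and the 12 that fell, a row per gene, with the 3 nM libraries drawn above the 0.2 nM libraries and untreated sets 2 and 1 under them. A value of 0 is drawn at 0.03 CPM. For CXCL8 the 3 nM points sit at 281 to 339 CPM, with the 0.2 nM points at 6.98 to 11.3 CPM, and for IGFBP5 they sit at 0.306 to 0.627 CPM, with the 0.2 nM points at 9.41 to 11.6 CPM.

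Within the NF-kB list the subunits, the inhibitors and the targets all rose. Of the subunits, NFKB1 had 178, 171 and 173 CPM at 3 nM, against 76.3, 75.9 and 75.4 CPM at 0.2 nM (log2 1.20, set-relative 1.13). NFKB2 stood at 310, 305 and 294 CPM at 3 nM and 135, 134 and 139 CPM at 0.2 nM (log2 1.16, set-relative 0.97). RELB, the partner of NFKB2 in the alternative pathway, had 90.7, 87.7 and 83.6 CPM at 3 nM, against 28.5, 28.7 and 29 CPM at 0.2 nM (log2 1.60, set-relative 1.23). These 3 subunits were each more than 2-fold higher, and REL was less so (log2 0.63), and its set-relative difference was of the other sign (-0.51).

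The inhibitors rose with them. NFKBIA, the I kappa B alpha protein that holds NF-kB in the cytoplasm, had 70.7, 67.6 and 62.8 CPM at 3 nM, against 31.2, 29.8 and 29 CPM at 0.2 nM (log2 1.16, set-relative 1.30). NFKBIE, a relative, had 80.6, 80.9 and 77.2 CPM at 3 nM, against 25.5, 25.7 and 25.7 CPM at 0.2 nM (log2 1.63, set-relative 1.25). TNFAIP3 (A20), an enzyme that shuts the pathway off, had 24.8, 28.1 and 24.3 CPM at 3 nM, against 6.24, 6.61 and 6.88 CPM at 0.2 nM (log2 1.97, set-relative 1.67). No library of 1 dose reached the range of the other for these 3 inhibitors.

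BIRC3, a ubiquitin ligase that protects from death by tumour necrosis factor, had 57.8, 54.6 and 56 CPM at 3 nM, against 8.98, 7.48 and 7.69 CPM at 0.2 nM (log2 2.80, SE 0.128, edgeR adjusted p = 1.8e-26, set-relative 1.77). IL6, the cytokine interleukin-6, was low throughout but apart, with 3.6, 3.98 and 4.72 CPM at 3 nM, against 0.634, 1.08 and 0.708 CPM at 0.2 nM (log2 2.33, set-relative 3.06). TNF had 71 counts over the 3 nM libraries and 0 over the 0.2 nM libraries, at least 8.88-fold higher with the floor set at 3 counts per group, and CSF2 had 23 and 0 counts, at least 2.88-fold higher. ICAM1, an adhesion molecule, had 44 and 3 counts, a ratio of 5.5 with an exact 95% counting interval of 1.76 to 27.7. CCL2, a chemokine for monocytes, had 4.81, 3.32 and 3.96 CPM at 3 nM, against 1.9, 2.06 and 2.33 CPM at 0.2 nM (log2 0.94, edgeR adjusted p = 0.0339, set-relative 1.03), and its call ended without any of replicates 1 and 3 at 3 nM or replicates 1, 2 and 3 at 0.2 nM (0.77 to 1.01).

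Against the untreated sets the list was split by dose. At 3 nM 10 members rose against set 2 and 6 fell (39% and 36.9% of all genes did), and at 0.2 nM 3 rose against set 1 and 11 fell (32.2% and 28.9% of all genes). The median over the 16 members with counts in every group was 0.61 at 3 nM and -0.73 at 0.2 nM. With TNF and CSF2 as fitted, the median of all 18 against set 1 was -1.73 at 0.01 nM for 24 h and -1.02 at 0.2 nM. From 0.01 to 0.2 nM at 24 h 10 members rose (26.9% of all genes did) and 3 fell. Both untreated sets were at 0 h, and the part of time in the falls was not tested.

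**Figure D3:**
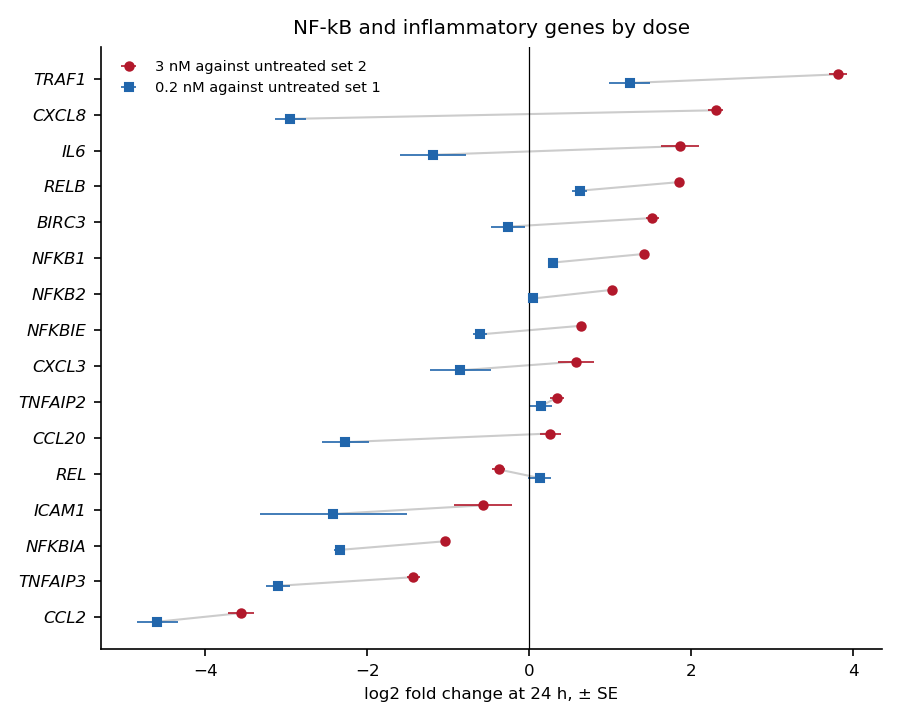
Log2 fold change against the untreated set of like depth for 16 genes of the NF-kB list, 3 nM against set 2 drawn above 0.2 nM against set 1, points with bars of 1 SE. The 3 nM point lies to the right of the 0.2 nM point for 15 of the genes, and REL is the exception.

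The gap between the doses in these genes was widest at 8 and 24 h by the number past 2-fold. In the 3 over 0.2 nM difference 14 of the 18 rose at 1 h (15.9% of all genes did), 9 at 2 h with 2 that fell (20.9% and 15.2%), 18 at 4 h (21.3%), 18 at 8 h (23.4%), 13 at 16 h (26.9%) and 18 at 24 h. The number that rose at least 2-fold was 3, 2, 5, 16, 9 and 15 at these times (0.538%, 1.03%, 1.18%, 1.48%, 0.837% and 1.51% of all genes).

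CXCL8 averaged 156, 637, 1221, 405, 92.2 and 304 CPM at 1, 2, 4, 8, 16 and 24 h at 3 nM, and at 0.2 nM 53.1, 414, 402, 41, 8.1 and 9.31 CPM. After an early peak its means were lower at both doses by 16 h, and it then rose again from 16 to 24 h at 3 nM (log2 1.72, SE 0.0938, edgeR adjusted p = 2.25e-21), while the change at 0.2 nM was 0.21 (edgeR adjusted p = 0.769). The difference between these changes was 1.51 (SE 0.34, edgeR adjusted p = 0.00232). TRAF1 averaged 13, 91.1, 215, 390, 84.3 and 148 CPM at 3 nM and 6.92, 95.7, 164, 125, 14.6 and 14.5 CPM at 0.2 nM, with changes from 16 to 24 h of 0.81 and -0.01 that differed by 0.82 (edgeR adjusted p = 0.013). IL1A had no early peak, and its mean was higher at each later time at 3 nM, with 1.06, 3.47, 5.55, 11.7, 14.9 and 30.1 CPM, beside 1.02, 2.47, 3.1, 4.07, 3.8 and 4.19 CPM at 0.2 nM.

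Between 16 and 24 h, a step chosen after the time course was seen, 14 of the 18 NF-kB genes rose and 0 fell at 3 nM (9.62% and 11.5% of all genes did), and 0 rose and 0 fell at 0.2 nM (4.16% and 6.05% of all genes). For 7 of the 18 the step was larger at 3 nM by the test of the difference (3.74% of all genes). The step was also larger at 3 nM for PTGS2 (1.05, edgeR adjusted p = 0.0116), CCL20 (1.34, edgeR adjusted p = 0.0418) and IL23A (1.28, edgeR adjusted p = 0.0386). For BIRC3 (0.60, edgeR adjusted p = 0.11) and IL1A (0.85, edgeR adjusted p = 0.0595) it did not pass. Each step compares libraries within a dose, with total counts of 20943740 to 24527547 at 16 h for 3 nM and 6830778 to 8427833 for 0.2 nM.

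**Figure D4:**
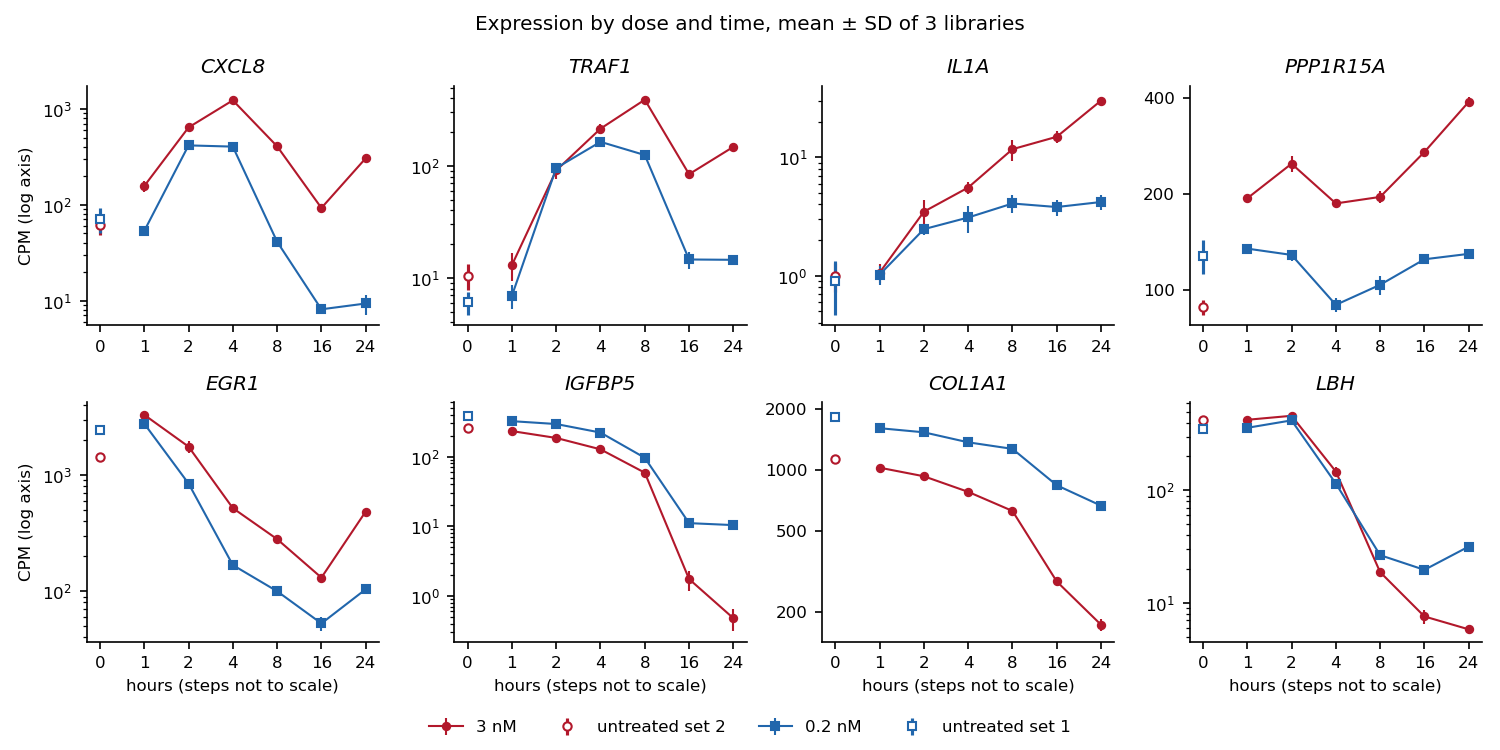
Mean CPM with bars of 1 SD (n = 3 per point, log axis) against time in hours for 8 genes, a line per dose and open symbols at 0 h for untreated set 2 and set 1, with times at equal steps. CXCL8, TRAF1 and EGR1 climb from 16 to 24 h at 3 nM, IL1A and PPP1R15A climb there at 3 nM to 30.1 and 389 CPM, and IGFBP5, COL1A1 and LBH end lower at 3 nM than at 0.2 nM.

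Stress-response targets of the core list were only a little higher at the high dose in the direct difference. Of 22 core targets 15 rose and 1, GDF15, fell in the direct difference (30.6% and 25.5% of all genes did), with a median of 0.25, and 2 rose at least 2-fold (1.51%). At 0.2 nM all 22 had already risen over 0.01 nM at 24 h (26.9% of all genes did), with a median of 1.35. In the set-relative difference 14 rose and 1 fell (25.6% and 22.8% of all genes), with a median of 0.55, and 5 rose at least 2-fold (1.5%). In the 24 h minus 4 h difference 8 rose and 3 fell (19.5% and 16.7% of all genes), with a median of 0.14.

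The 2 large exceptions in the direct difference were a feedback gene and a stress factor. PPP1R15A, the phosphatase subunit, had 395, 398 and 372 CPM at 3 nM, against 132, 131 and 127 CPM at 0.2 nM (2.99-fold, log2 1.58, SE 0.0487, edgeR adjusted p = 4.72e-34, set-relative 2.11). At 3 nM it was above untreated set 2 by log2 2.14, and at 0.2 nM its difference from untreated set 1 was 0.03 (edgeR adjusted p = 0.717). It climbed from 16 to 24 h at 3 nM to 389 CPM, and its step exceeded that at 0.2 nM by 0.46 (edgeR adjusted p = 8.93e-06). ATF3, a repressor that ATF4 induces, had 236, 236 and 230 CPM at 3 nM, against 85.9, 94.5 and 92.5 CPM at 0.2 nM (log2 1.36, set-relative 2.35), and both groups were below their untreated set.

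The other core genes moved by less. ATF4 itself had 734, 736 and 724 CPM at 3 nM, against 582, 629 and 602 CPM at 0.2 nM (log2 0.28, set-relative 0.61). DDIT3 (CHOP), a factor of stress-induced death, had 116, 119 and 108 CPM at 3 nM, against 67.8, 79 and 75.9 CPM at 0.2 nM (log2 0.63, set-relative 1.23). TRIB3, which restrains ATF4, had 585, 572 and 545 CPM at 3 nM, against 348, 366 and 345 CPM at 0.2 nM (log2 0.69, set-relative 0.91), and SESN2, a brake on mTORC1, differed by log2 0.74. The groups did not overlap for these 4 genes. Differences of ASNS (0.23) and CHAC1 (0.18) were called but small, and neither was called on the TPM scale (0.11 for ASNS and 0.00 for CHAC1), and DDIT4 (-0.03) and NUPR1 (0.01) were not called. GDF15, a secreted stress signal, had 72.5, 70.8 and 68.6 CPM at 3 nM, against 83.4, 90.3 and 76.1 CPM at 0.2 nM (log2 -0.24), with a set-relative difference of the other sign (0.39).

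Of the 6 kinases and phosphatase subunits that act on eIF2 alpha, PPP1R15A, PPP1R15B and EIF2AK3 rose and EIF2AK1 and EIF2AK2 fell. PPP1R15B, the constitutive partner subunit, had 139, 136 and 141 CPM at 3 nM, against 106, 102 and 103 CPM at 0.2 nM (log2 0.41, set-relative 0.39). EIF2AK3, which encodes PERK, differed by log2 0.40. Whether reads of the mouse construct count toward EIF2AK3 was not tested.

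Immediate early genes, which growth signals switch on within minutes, were mostly higher at 3 than at 0.2 nM and mostly below the 0 h untreated cells at both. Of 17 tested, 11 rose and 0 fell in the direct difference (30.6% and 25.5% of all genes did), 7 of them at least 2-fold (1.51%), with a median of 0.85. The set-relative difference rose for 15 (25.6%) with a median of 1.46. The 24 h minus 4 h difference was higher for 5 and lower for 6 (19.5% and 16.7%), with a median of -0.27, and at 4 h itself all 17 were higher at 3 nM with a median of 1.02. Against the untreated sets 15 fell at 3 nM (36.9% of all genes did) and 17 at 0.2 nM (28.9%). The medians were -2.38 and -3.71, and that of 0.01 nM at 24 h against set 1 was -4.38. Set 1 and set 2 differed for some of them, as for FOS, which had 8.84 CPM at 3 nM, 7.47 CPM at 0.2 nM, 85 CPM in set 2 and 650 CPM in set 1, so its set-relative value rests on the untreated sets. FOSL1, a FOS relative, had 168, 165 and 165 CPM at 3 nM, against 79.5, 77.8 and 73.5 CPM at 0.2 nM (log2 1.11, set-relative 1.00). DUSP1, a phosphatase that quiets MAP kinases, had 220, 226 and 221 CPM at 3 nM, against 102, 105 and 104 CPM at 0.2 nM (log2 1.10, set-relative 2.01). Neither gene's groups overlapped.

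Of 12 tested genes of ERK feedback and YAP, 11 rose and 0 fell (30.6% and 25.5% of all genes did), with a median of 0.61, and all 12 rose in the set-relative difference (25.6%), of which SPRED1, SPRED2, AMOTL2 and AXL changed sign on the TPM scale. ANKRD1, a YAP target, had 362, 359 and 354 CPM at 3 nM, against 171, 167 and 164 CPM at 0.2 nM (log2 1.10, set-relative 1.24). CYR61, a matricellular YAP target, had 876, 901 and 884 CPM at 3 nM, against 449, 448 and 438 CPM at 0.2 nM (log2 0.99, set-relative 1.20). Untreated cells held more of both, with 2684 ± 53.2 CPM of CYR61 in set 2 and 3084 ± 179 CPM in set 1. AXL was not called (0.04).

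Among 11 tested secreted stress factors, 7 rose and 2 fell (30.6% and 25.5% of all genes did), and 6 rose and 0 fell in the set-relative difference (25.6% and 22.8%). IL11, a cytokine of fibrosis and bone, had 60.3, 64.6 and 59.7 CPM at 3 nM, against 19.4, 17.2 and 16.8 CPM at 0.2 nM (log2 1.79, SE 0.0975, edgeR adjusted p = 4.36e-23, set-relative 1.79). It was above untreated set 2 at 3 nM (log2 0.82) and below set 1 at 0.2 nM (log2 -0.97), with the same mean of 34.9 CPM in either set. TSLP, an epithelial alarm cytokine, had 35, 32.9 and 32.7 CPM at 3 nM, against 10.4, 10.3 and 10.7 CPM at 0.2 nM (log2 1.68), and its set-relative difference of 1.01 did not pass (edgeR adjusted p = 0.114) but did without replicate 2 of untreated set 1 (1.39). INHBE, an activin subunit and ATF4 target, was lower at the high dose, with 30.9, 30.9 and 31.7 CPM at 3 nM, against 39.6, 38.8 and 41.6 CPM at 0.2 nM (log2 -0.36, set-relative -0.45 and not called).

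Most ribosome biogenesis factors, snoRNA host transcripts, tRNA synthetases and initiation factors were modestly higher, while ribosomal proteins moved both ways in the direct difference. Of 27 ribosome biogenesis factors 26 rose in the direct difference (median 0.61, 30.6% of all genes rose), 25 in the set-relative one (median 0.47, 25.6%) and 26 in the 24 h minus 4 h one (median 0.41, 19.5%). DDX21, an RNA helicase of the nucleolus, had 1044, 1072 and 1058 CPM at 3 nM, against 543, 564 and 554 CPM at 0.2 nM (log2 0.93, set-relative 0.66), and DDX10, another such helicase, was the 1 member past 2-fold (log2 1.02, set-relative 1.07). Of 15 snoRNA host transcripts 13 rose (30.6% of all genes did) and SNHG16 fell (median 0.70), and the call of SNHG16 (log2 -0.10, set-relative 0.36) ended without replicate 3 at 3 nM (-0.11) or replicate 2 at 0.2 nM (-0.08). In the 24 h minus 4 h difference 8 of these 15 rose and 0 fell (median 0.21, 19.5% of all genes rose). At 1 h, 10 of the 15 were already higher at 3 nM and 1 lower (median 0.38, 15.9% of all genes were higher). ZFAS1 had 312, 317 and 313 CPM at 3 nM, against 162, 183 and 161 CPM at 0.2 nM (log2 0.90, set-relative 0.88). As background, many host transcripts are broken down when they are translated.

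Of 20 cytosolic tRNA synthetases 19 rose (median 0.40, 30.6% of all genes rose), and 19 in the set-relative difference (median 0.44, 25.6%). TARS, the threonine enzyme, had 746, 746 and 720 CPM at 3 nM, against 481, 498 and 488 CPM at 0.2 nM (log2 0.59, set-relative 0.58). The exception was QARS, the glutamine enzyme, with 94.2, 92.5 and 87.5 CPM at 3 nM, against 127, 139 and 144 CPM at 0.2 nM (log2 -0.58, set-relative -0.44). Of 20 initiation factors 17 rose and 0 fell (median 0.39, against 30.6% and 25.5% of all genes), and EIF5 had 336, 338 and 333 CPM at 3 nM, against 196, 198 and 207 CPM at 0.2 nM (log2 0.74, set-relative 0.70).

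Of 22 tested genes of chaperones and degradation in the endoplasmic reticulum 15 rose and 4 fell in the direct difference (median 0.28, with 30.6% and 25.5% of all genes), and 19 rose and 0 fell in the set-relative one (25.6% and 22.8%). XBP1, a driver of the unfolded protein response, had 341, 339 and 337 CPM at 3 nM, against 201, 205 and 205 CPM at 0.2 nM (log2 0.73, set-relative 1.16). DNAJB9, a co-chaperone, had 28.1, 28.7 and 29.2 CPM at 3 nM, against 13.3, 17.2 and 12.9 CPM at 0.2 nM (log2 0.99, set-relative 1.30). PDIA4, a disulfide isomerase, fell (log2 -0.31, set-relative 0.03 and not called). On the TPM scale several members of the chaperone, synthetase and ribosome lists changed sign in the set-relative difference, in which that scale moved the median of all genes.

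**Figure D5:**
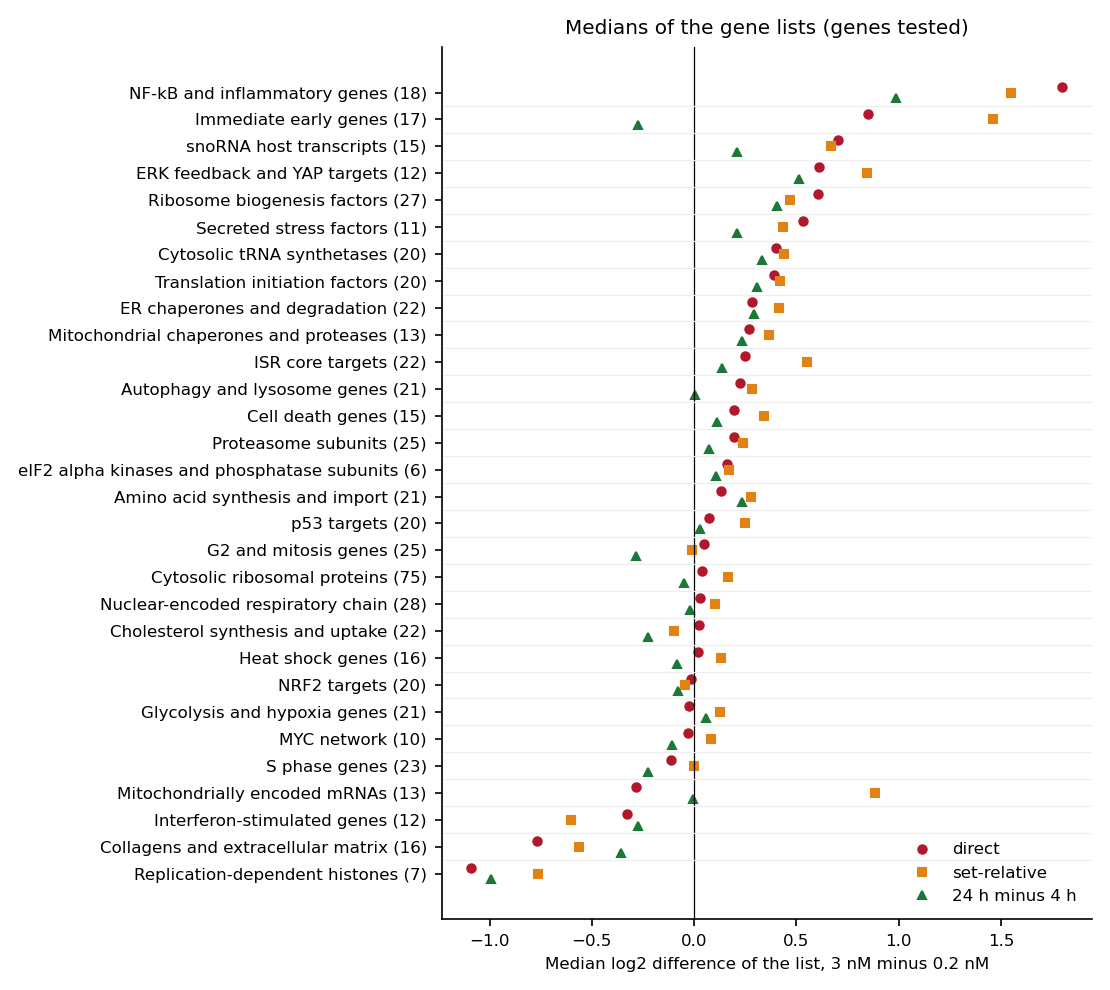
Median log2 difference over the tested members of 30 gene lists, with 3 markers per list for the direct, the set-relative and the 24 h minus 4 h difference. The NF-kB list lies farthest to the right (1.80, 1.55 and 0.99 with TNF and CSF2 as fitted), and the replication-dependent histones farthest to the left in the direct difference (-1.09). Without TNF and CSF2 the set-relative median of the NF-kB list was 1.37, below the 1.46 of the immediate early genes.

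On the lower side the 12 genes named by the rule were IGFBP5, FOXS1, MIAT, PCDHB5, OLFML3, CXXC4, NYNRIN, HAPLN1, SLC2A12, DBP, LBH and TUBB4A. All 12 fell against untreated set 2 at 3 nM and against untreated set 1 at 0.2 nM. In bulk samples, fewer cells of a type and less RNA per cell cannot be told apart.

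IGFBP5, a secreted protein that binds insulin-like growth factors and is abundant in bone cells, had 0.627, 0.306 and 0.506 CPM at 3 nM, against 9.41, 11.6 and 10.1 CPM at 0.2 nM (log2 -4.40, SE 0.349, edgeR adjusted p = 1.72e-16, set-relative -3.80). Untreated cells held 254 ± 11.1 CPM in set 2 and 386 ± 36.1 CPM in set 1, and 0.01 nM for 24 h left 181 CPM, so the means ran down from untreated through 0.01 and 0.2 to 3 nM. At 3 nM it averaged 232, 185, 127, 58.7, 1.75 and 0.48 CPM over the 6 times, and at 0.2 nM 322, 293, 221, 96.1, 11.1 and 10.4 CPM. From 16 to 24 h it fell at 3 nM (log2 -1.82) while its change at 0.2 nM was -0.10 (edgeR adjusted p = 0.866), a difference of -1.73 (edgeR adjusted p = 0.0304). The gene (ENSG00000115461.4) lies at 216672105 to 216695525 of chromosome 2 on GRCh38.

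MIAT, a long intergenic noncoding RNA, had 0.753, 1.18 and 1.05 CPM at 3 nM, against 11.7, 11.2 and 11.2 CPM at 0.2 nM (log2 -3.51, set-relative -3.62), while untreated cells held 177 ± 8.94 CPM in set 2 and 163 ± 21.9 CPM in set 1. OLFML3, a secreted glycoprotein of the matrix, had 1.71, 1.22 and 1.52 CPM at 3 nM, against 11.7, 13.3 and 14.3 CPM at 0.2 nM (log2 -3.13, SE 0.134, edgeR adjusted p = 8.61e-28, set-relative -3.12). HAPLN1, which links hyaluronan to proteoglycans, had 1.63, 1.22 and 1.47 CPM at 3 nM, against 9.2, 9.87 and 9.81 CPM at 0.2 nM (log2 -2.73, set-relative -2.68). The groups stood apart for all 3, as the naming rule asked.

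Regulators were among the lower genes. LBH, a transcription cofactor of limb and heart, had 6.02, 5.73 and 5.77 CPM at 3 nM, against 33.4, 31.8 and 30 CPM at 0.2 nM (log2 -2.44, SE 0.0958, edgeR adjusted p = 1.97e-29, set-relative -2.72). It fell from 16 to 24 h at 3 nM (log2 -0.37) and rose at 0.2 nM (log2 0.68), a difference of -1.05 (edgeR adjusted p = 9.85e-07). DBP, a clock-controlled transcription factor, had 1.34, 1.09 and 1.64 CPM at 3 nM, against 6.87, 8.46 and 7.69 CPM at 0.2 nM (log2 -2.49, set-relative -2.60). It showed the same divergence, with steps of -0.58 at 3 nM and 0.96 at 0.2 nM that differed by -1.54 (edgeR adjusted p = 0.000323), and 0.01 nM at 24 h stood at 43.6 CPM. FOXS1, a forkhead factor, was near its floor at 3 nM with 0.878, 0.0874 and 0.211 CPM, against 6.98, 9.54 and 8.29 CPM at 0.2 nM (log2 -4.35, set-relative -3.65). A count of 0 would allow up to 0.126 CPM in a 3 nM library and 0.337 CPM in a 0.2 nM library.

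The other 5 were PCDHB5, a cell adhesion protocadherin (0.804 ± 0.293 CPM at 3 nM and 7.90 ± 0.708 CPM at 0.2 nM), CXXC4, an inhibitor of Wnt signalling (0.737 ± 0.174 and 5.35 ± 0.43 CPM), NYNRIN (0.854 ± 0.208 and 6.13 ± 0.917 CPM), SLC2A12, a glucose transporter (1.69 ± 0.464 and 10.6 ± 0.562 CPM), and TUBB4A, a beta tubulin (1.32 ± 0.32 and 6.90 ± 0.526 CPM). The rule that named these genes asked for this order and for libraries that do not overlap.

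Matrix genes fell as a group, with an exception. Of 16 tested collagen and matrix genes 13 fell and 1 rose in the direct difference (25.5% and 30.6% of all genes did), 5 fell at least 2-fold (6.6% of all genes), and the median was -0.77. In the set-relative difference 11 fell (22.8% of all genes did) and 1 rose (median -0.56), and in the 24 h minus 4 h difference 9 fell (16.7% of all genes did) and 2 rose (median -0.36). COL1A1, the main chain of bone collagen, had 184, 162 and 174 CPM at 3 nM, against 641, 696 and 674 CPM at 0.2 nM (log2 -1.95, SE 0.0469, edgeR adjusted p = 3.49e-39, set-relative -1.26). It held 1142 ± 16.3 CPM in untreated set 2 and 1841 ± 81.4 CPM in set 1. LUM, a proteoglycan that spaces collagen fibrils, had 1.09, 0.831 and 1.18 CPM at 3 nM, against 7.29, 4.66 and 6.37 CPM at 0.2 nM (log2 -2.55, set-relative -2.31). COL5A1, a minor fibril collagen, had 128, 122 and 121 CPM at 3 nM, against 277, 301 and 284 CPM at 0.2 nM (log2 -1.21, set-relative -1.02).

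SPARC, a collagen-binding protein of bone, had 299, 295 and 301 CPM at 3 nM, against 533, 602 and 551 CPM at 0.2 nM (log2 -0.91, set-relative -0.54). FN1, fibronectin, which is named after its values were seen, fell in the direct difference (log2 -0.78), while its set-relative difference was -0.01 (edgeR adjusted p = 0.948), with 1048 ± 86.6 CPM in untreated set 2 and 1788 ± 293 CPM in set 1. The member that rose was TNC, tenascin-C, a matrix protein of wounds and tumours, with 949, 916 and 917 CPM at 3 nM, against 501, 459 and 461 CPM at 0.2 nM (log2 0.97, SE 0.0462, edgeR adjusted p = 1.2e-25, set-relative 1.35). Untreated cells held 109 ± 4.16 CPM of TNC in set 2 and 141 ± 6.37 CPM in set 1, so it was above its untreated set by log2 3.09 at 3 nM and by 1.74 at 0.2 nM.

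Of 7 tested replication-dependent histone genes 6 fell and 0 rose (25.5% and 30.6% of all genes did), 4 fell at least 2-fold (6.6%), and their summed level was 11.5 to 12 CPM at 3 nM and 22 to 24.9 CPM at 0.2 nM. HIST2H2BE, a histone H2B gene, had 0.837, 1.18 and 0.758 CPM at 3 nM, against 2.96, 3.25 and 3.54 CPM at 0.2 nM (log2 -1.81, set-relative -1.45). As background, most such mRNAs lack a poly(A) tail, and their counts here were low. Of 23 S phase genes 11 fell and 4 rose (25.5% and 30.6% of all genes did), with a median of -0.11. In the set-relative difference 4 fell and 5 rose (22.8% and 25.6% of all genes).

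Of 16 heat shock genes 6 rose and 5 fell, near the shares of all genes (30.6% and 25.5%), and 4 fell at least 2-fold (6.6% of all genes). HSPA1A, an inducible HSP70 chaperone, had 34.7, 35.3 and 33.2 CPM at 3 nM, against 98.9, 115 and 97.8 CPM at 0.2 nM (log2 -1.59, set-relative -1.08), and HSPA1B, its near-identical copy with which it can share reads, differed by log2 -1.26. CRYAB, a small heat shock protein, had 35.1, 34.3 and 35.4 CPM at 3 nM, against 91.1, 105 and 97.4 CPM at 0.2 nM (log2 -1.48, set-relative -1.16), beside 298 ± 13.0 CPM in untreated set 2 and 373 ± 3.82 CPM in set 1.

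Of 15 tested cell death genes 8 rose and 4 fell (30.6% and 25.5% of all genes did). BMF, a BH3-only protein that promotes death on detachment, had 0.418, 0.35 and 0.464 CPM at 3 nM, against 3.17, 3.58 and 3.64 CPM at 0.2 nM (log2 -3.05, SE 0.328, edgeR adjusted p = 7.03e-12, set-relative -3.19). PMAIP1 (NOXA), another BH3-only protein, went the other way with 222, 221 and 218 CPM at 3 nM, against 118, 131 and 122 CPM at 0.2 nM (log2 0.83, set-relative 1.09). TNFRSF10B, the death receptor DR5 that CHOP induces, stood at 306 ± 6.09 CPM at 3 nM and 170 ± 7.88 CPM at 0.2 nM (log2 0.85, set-relative 0.94). Of 12 tested interferon-stimulated genes 4 fell and 1 rose (25.5% and 30.6% of all genes did). IFI6 had 2.68, 2.19 and 2.7 CPM at 3 nM, against 7.29, 6.83 and 7.79 CPM at 0.2 nM (log2 -1.53, set-relative -1.33), and both doses were below untreated.

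In the MYC network 5 genes rose and 5 fell of 10 (30.6% and 25.5% of all genes did). MXD1, an antagonist of MYC, had 78.9, 76.7 and 76.3 CPM at 3 nM, against 30.5, 27.3 and 28.1 CPM at 0.2 nM (log2 1.43, set-relative 1.93), and its relative MXD3 had 7.7, 6.51 and 8.85 CPM at 3 nM, against 22.9, 23.3 and 23.8 CPM at 0.2 nM (log2 -1.60, set-relative -1.50). Members of 1 family thus moved apart by more than 2-fold in either direction. Of 20 NRF2 targets 6 rose and 8 fell (30.6% and 25.5% of all genes did). In the set-relative difference 1 rose and 6 fell (25.6% and 22.8% of all genes).

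The remaining lists had medians nearer 0, and their direct counts stand beside 30.6% of all genes that rose and 25.5% that fell. Among the 10139 protein-coding genes with a mean of at least 10 CPM a larger share rose. Of these, 4790 rose and 2633 fell, with a median of 0.11. Of 21 amino acid genes 11 rose and 3 fell (median 0.13), of 25 proteasome subunits 19 rose and 1 fell (median 0.20), and 10 rose and 1 fell of 13 chaperones and proteases of mitochondria (median 0.27). Of 21 autophagy and lysosome genes 12 rose and 6 fell (median 0.22). Cholesterol genes (6 rose and 7 fell of 22), p53 targets (9 and 8 of 20), glycolysis and hypoxia genes (9 and 7 of 21), respiratory chain genes (10 and 8 of 28), cytosolic ribosomal proteins (27 and 17 of 75) and genes of G2 and mitosis (8 and 5 of 25) moved both ways. In the set-relative difference the numbers that rose and fell were 4 and 10 for cholesterol genes, 13 and 2 for p53 targets, 11 and 4 for glycolysis and hypoxia genes, 9 and 1 for the respiratory chain, 51 and 3 for ribosomal proteins and 6 and 8 for G2 and mitosis (25.6% and 22.8% of all genes), and 47 of the ribosomal protein calls changed sign on the TPM scale. Of 13 mitochondrially encoded mRNAs 12 fell and 0 rose in the direct difference (median -0.28), 13 rose in the set-relative one (median 0.89), and 1 rose in the 24 h minus 4 h one (median -0.01). Set 1 is the group with the high share given above.

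Some markers of cell types were also called, in both directions. The sums below cover the markers that passed the filter on low counts. The summed level of the 7 tested mesenchymal and osteoblast markers was 1897 to 1911 CPM at 3 nM and 3000 to 3336 CPM at 0.2 nM. Of these 7, 5 were lower and 1 higher (25.5% and 30.6% of all genes were). RUNX2 was among the lower ones (log2 -0.97, set-relative -0.77). Epithelial markers summed to 648 to 659 CPM at 3 nM and 540 to 590 CPM at 0.2 nM. Of the 7 tested, 1 was higher and 3 lower, beside the same 30.6% and 25.5% of all genes. Blood and immune markers summed to 8.7 to 9.99 CPM at 3 nM and 3.95 to 4.23 CPM at 0.2 nM, almost all of it CD68, a lysosomal protein (log2 1.14 and set-relative 1.75, with no call on the TPM scale, where they were 0.66 and 0.63). Endothelial markers summed to 2.49 to 3.15 CPM at 3 nM and 3.54 to 4.02 CPM at 0.2 nM. Neural markers summed to 36.4 to 41.3 CPM at 3 nM and 68.8 to 72.6 CPM at 0.2 nM, chiefly TUBB3 (log2 -1.42, set-relative -1.33). The part of these shifts in the cytokine and matrix results was not tested.

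Set against the untreated groups, the high dose added losses to those of the intermediate dose. At least 2-fold lower were 3095 genes at 3 nM against set 2 (17.2%) and 1691 at 0.2 nM against set 1 (9.37%), and 1507 were lower at both, 48.7% of the 3 nM genes and 89.1% of the 0.2 nM genes. These comparisons share no library. Of the 1507, 403 were at least 2-fold lower at 3 nM than at 0.2 nM in the direct and the set-relative difference, and of 1574 that were 2-fold lower at 3 nM only, 336 were. At least 2-fold higher were 1664 genes at 3 nM (9.22%) and 1565 at 0.2 nM (8.68%), and 768 at both, 46.2% and 49.1% of them. Few of these gains differed as much between the doses. Of the 768, 24 were at least 2-fold higher at 3 nM than at 0.2 nM in both differences. Of 891 that were 2-fold higher at 3 nM only, 43 were. Of 783 that were 2-fold higher at 0.2 nM only, 56 were at least 2-fold lower at 3 nM in both differences. Over time the number of genes at least 2-fold higher at 3 than at 0.2 nM was 97, 186, 213, 267, 151 and 272 at 1, 2, 4, 8, 16 and 24 h, and at least 2-fold lower were 83, 179, 161, 236, 562 and 1191 (0.46%, 0.992%, 0.892%, 1.31%, 3.12% and 6.6%). Losses of this size thus outnumbered gains at 16 and 24 h, and gains outnumbered losses at 1 to 8 h. On the TPM scale the genes called at 0.2 nM against set 1 split into 8020 higher and 2709 lower, against 5809 and 5217 on the count scale.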

How the data were processed

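Total RNA of 60 samples of 20 groups was made into strand-specific libraries and sequenced on a NovaSeq, per the labels' protocols. Estimated counts per gene and TPM per gene were deposited as 2 tables. The dose written 0.2 nM is 0.195 nM in the sample labels. Salmon 0.9.1, FastQC 0.11.5 and the build GRCh38 were named, per the submitters' processing notes, without an annotation release. Of 57665 deposited genes, 57068 matched an identifier of GENCODE release 29, from which positions were taken. Within 1e-06, 54.2% of the nonzero deposited values on the count scale were integers, and the rest were rounded to integers.

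Genes were tested on the rounded counts with the quasi-likelihood test of edgeR 4.0.16 (R 4.3.3) scaled by TMM and filtered by filterByExpr (18040 genes left), in 1 fit of all 60 libraries that gave each of the 20 groups its own mean and had 40 residual degrees of freedom. Adjusted p-values are by the Benjamini-Hochberg method within each contrast, with a threshold of 0.05. CPM are TMM-scaled. The SE of a log2 difference was derived from it and its F statistic and is approximate. The common dispersion was 0.00129. On counts simulated with known changes, the fit was tested before use. Each library counted as 1 sample. The chi-square per degree of freedom between replicates of the groups compared was 1.68 to 2.63, which does not show whether they were separate cultures.

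Genes were named by a rule. It took the 12 that rose and the 12 that fell by the smaller of the direct and set-relative differences, with a mean of at least 5 CPM in the higher group, no overlap of libraries and a symbol that is no clone name. It also took the 6 with the largest set-relative difference among genes changed in opposite directions, and in each list the 3 members with the largest direct difference and the member farthest the other way. Members of the core stress response, NF-kB, immediate early and eIF2 alpha lists could each be named, as could markers of cell types, and FN1 was added after its values were seen. The 35 lists and the comparison itself were chosen with earlier results of these data known. Lists were not tested and are described by counts and medians.

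Other settings tried were DESeq2 1.42.0, its size factors, 2 other filters on low counts, limma 3.58.1 on log2(TPM + 1) and log2(TPM + 0.1), only the groups of a contrast, thinned deep libraries, a 1.5-fold threshold, a replicate block and leaving out each library. Promoters came from the RefSeq table of GRCh38.p14. A count of 0 allowed up to 3 counts. Reads carried no molecular identifiers, so floors and intervals cover counting error only. Estimated counts divide reads among near-identical genes, and values of such genes are uncertain. Figures and summaries were made with Python 3.11.15 and pandas 2.3.3.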

Additional observations from a re-analysis of the deposited data

Results flagged for a closer look

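The 24 h minus 4 h difference passed the test for 26 genes named by the rule (edgeR's quasi-likelihood test, adjusted p under 0.05). These genes were picked for large differences that use the 24 h libraries, and the same libraries enter this test. The choice thus favours a pass, and the values below are a description. Of all genes, 19.5% were higher and 16.7% lower by this test. Among the genes that were higher at 3 nM, the 24 h minus 4 h difference on the log2 scale was 4.16 for ESM1, 3.66 for BCL2A1, 3.43 for CXCL8, 3.19 for TMEM265, 3.08 for IL1RL1 and 2.96 for TRAF1. It was smaller for IL23A (2.23), IL1A (2.02), CCL20 (1.81), RND1 (1.14), PTGS2 (0.76) and EGR1 (0.59). Among the genes that were lower at 3 nM it was -4.44 for FOXS1, -3.60 for IGFBP5, -3.58 for CXXC4, -3.38 for SLC2A12, -3.15 for DBP and -2.88 for OLFML3. It was -2.82 for PCDHB5, -2.81 for NYNRIN, -2.79 for LBH, -2.65 for MIAT, -2.52 for TUBB4A and -2.49 for HAPLN1. The low-count transcripts CITF22-49D8.1 and CTB-131B5.2 had -1.88 and -1.57. The other transcript known by a clone name is not among the 26.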

How the results depend on the processing

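The replicate numbers in the labels were not used to pair the samples in the main fit. Correlations of same-numbered deviations ran from -0.0038 to 0.179, with 3 of 15 above 0.1, which cannot show that pairing is absent. With the replicate number as a block, 5558 genes rose and 4602 fell in the direct difference, and 4632 rose and 4122 fell in the set-relative one. Leaving out 1 library at a time gave 9152 to 9686 called genes in the direct difference, 248 to 276 higher and 1137 to 1274 lower by at least 2-fold, and in the set-relative difference 8105 to 8694, 256 to 300 and 1434 to 1756. For 3 nM against set 2 these ranges were 13207 to 13314, 1655 to 1694 and 3066 to 3120, for 0.2 nM against set 1 10223 to 10580, 1317 to 1591 and 1689 to 1757, and for 24 h minus 4 h 5926 to 6357, 217 to 251 and 941 to 1022. Genes past 2-fold in both differences numbered 116 to 138 higher and 776 to 874 lower.

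On log2(TPM + 1) the direct difference called 6693 genes, 124 higher and 484 lower by at least 2-fold, the 24 h minus 4 h difference 3430, 154 and 368, and both differences past 2-fold 59 and 401. On that scale 103 genes were 2-fold higher in the set-relative difference, 2015 lower at 3 nM and 686 lower at 0.2 nM. On log2(TPM + 1) with no filter the numbers were 6291, 163 and 538 in the direct difference, 4945 called and 109 higher in the set-relative one, 745 lower at 0.2 nM, 2853 called and 372 lower for 24 h minus 4 h, and 64 and 395 in both. On log2(TPM + 0.1) they were 111 higher in the set-relative difference, 2529 higher and 1086 lower at 0.2 nM, 3534 called for 24 h minus 4 h and 65 higher in both. With no filter on low counts 458 genes were 2-fold higher in the direct difference. Tested against a 1.5-fold change, which is stricter by construction, 1510 genes were called in the direct, 1451 in the set-relative (982 2-fold lower), 6600 in the 3 nM, 3670 in the 0.2 nM and 914 in the 24 h minus 4 h comparison (134 higher and 594 lower), and 542 were lower in both. The cause of the other shifts was not tested.

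The set-relative differences of AXL and EIF2AK3 changed sign on the TPM scales, to -0.07 and -0.04, where the median of all genes was also lower. For the 12 higher genes, the 12 lower genes and the 3 clone-named transcripts, direction held in every setting run, and the calls that ended were those of IL1RL1 and BCL2A1 (set-relative) and of the 3 transcripts (direct). Over the other genes named in the text, counting each setting and both differences, 93 calls ended, 29 were gained and 6 changed sign (AXL and EIF2AK3). The direct call of CITF22-49D8.1 ended without replicate 3 at 0.2 nM (-1.20), that of CTB-131B5.2 without replicate 1 there (-0.90), and that of RP11-981G7.1 without replicate 3 at 3 nM (-1.26) or at 0.2 nM (-1.10). The NF-kB, immediate early, core stress response, matrix, histone and ribosome biogenesis lists kept the sign of their direct and set-relative medians in every setting run. Depth limits the low genes: 1867 tested genes averaged under 1 CPM, and 48 of them were 2-fold higher and 226 lower in the direct difference.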
